A study of Rattus norvegicus with 8 samples.

Results

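The genes described here encode secreted proteins that organise or turn over the extracellular matrix of the sinoatrial node, the small right atrial region that sets the heartbeat. They are 7 of the 32285 genes in the count table, picked by identifier for the matrix roles of their proteins, with earlier results of these data known: Postn (ENSRNOG00000012660), Spp1 (ENSRNOG00000043451), Sparc (ENSRNOG00000012840), Dcn (ENSRNOG00000004554), Lum (ENSRNOG00000004610), Timp1 (ENSRNOG00000010208) and Mmp2 (ENSRNOG00000016695). All 7 passed the filter on low counts, which left 16313 genes to test. RNA came from the dissected node of Dahl salt-sensitive rats (SS/JrHsdMcwiCrl), a strain whose blood pressure climbs when dietary salt is high. Control rats (4 libraries) were fed chow with 0.4% NaCl for 11 weeks. Rats of the group with heart failure with preserved ejection fraction (HFpEF, 4 libraries) were fed chow with 8% NaCl for the same 11 weeks. Both groups carried the same salt-sensitive background, and no group was fed the salt-rich chow without the disease model, so salt, hypertension and heart failure cannot be told apart. The labels do not say that each library was a separate animal, and p-values therefore measure the spread between these libraries, which may be technical.

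The matrix of the heart is built mainly by fibroblasts. Matricellular proteins such as periostin (Postn), osteopontin (Spp1) and SPARC (Sparc) bind the matrix and cell-surface receptors and shape how cells and collagen interact, rather than forming the scaffold themselves. Decorin (Dcn) and lumican (Lum) are small leucine-rich proteoglycans that bind collagen fibrils and limit their diameter. Matrix metalloproteinase 2 (Mmp2) degrades denatured collagen and basement membrane collagen, and tissue inhibitor of metalloproteinases 1 (Timp1) blocks metalloproteinases. In the sinoatrial node these proteins lie within a dense connective tissue that surrounds the pacemaker cells.

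The 250 bases before the start site are shown in the next lines for the 3 of the 7 genes with the largest log2 fold changes between the groups. The choice is by size alone: Postn did not pass the threshold used below (edgeR adjusted p = 0.0525), while Spp1 and Timp1 did. The sequences are RefSeq's, matched by symbol, from the GRCr8 build, while the counts were made on rn6, so the positions hold for GRCr8 only. Capitals mark the motif matches described after them.
Postn, chr2:140677811-140678060, plus strand: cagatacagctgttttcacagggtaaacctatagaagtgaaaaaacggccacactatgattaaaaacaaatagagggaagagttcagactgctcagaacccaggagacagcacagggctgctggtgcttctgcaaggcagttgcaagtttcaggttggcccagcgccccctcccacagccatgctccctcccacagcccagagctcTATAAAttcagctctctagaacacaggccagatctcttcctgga
Spp1, chr14:5619805-5620054, minus strand: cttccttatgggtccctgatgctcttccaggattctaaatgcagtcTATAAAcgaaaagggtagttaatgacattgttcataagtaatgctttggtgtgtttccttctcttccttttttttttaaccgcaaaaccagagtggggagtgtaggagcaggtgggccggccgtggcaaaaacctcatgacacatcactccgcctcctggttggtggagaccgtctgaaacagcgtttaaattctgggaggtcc
Timp1, chrX:3771123-3771372, minus strand: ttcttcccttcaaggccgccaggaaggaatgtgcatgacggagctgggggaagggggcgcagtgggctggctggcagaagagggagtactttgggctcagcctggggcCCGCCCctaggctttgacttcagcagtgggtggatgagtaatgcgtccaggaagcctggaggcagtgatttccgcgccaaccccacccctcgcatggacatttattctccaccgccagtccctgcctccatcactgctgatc

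In windows from 250 bases before to 50 after the start, 5 motifs were searched on both strands in the 5 genes with a promoter in the table (Postn, Spp1, Sparc, Lum and Timp1). The TATA box letters TATAAA were present in Postn, 44 bases before the start, and in Spp1, 204 bases before it, and in 14.2% of all 33469 promoters. The GC box letters GGGCGG were present in Timp1, on the opposite strand and 142 bases before the start, and in 33.1% of all promoters. The Runx letters TGTGGT were found in Sparc and Lum and in 17.3% of all promoters, and the CCAAT letters in Lum and in 37.5%. The AP-1 letters TGANTCA were in 0 of the 5 and in 7.33% of all promoters. No 2 matches overlapped. A match is only a match of letters and says nothing about binding.

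Each library held between 31774820 and 38889395 expected counts. Where a gene has 0 counts, up to 3 are compatible with counting error alone, which is at most 0.0944 CPM (counts per 1e+06). Every gene described here lay above this in every library. All counts of the 7 genes were whole numbers within 0.005, without the fractions that RSEM leaves when it divides reads between genes. Levels are CPM after scaling of the library totals by TMM, and are compared between libraries and not between genes, since gene length was not used. Timp1 overlaps Syn1 and Dcn overlaps LOC120093566 in the GRCr8 gene table. The strand setting of the counting is not given in the sources used here, so the reads of such overlapping genes may not have been told apart. Gene symbols were known for the 7 genes alone, so the markers of pacemaker cells, fibroblasts, macrophages and other cell types could not be examined, and the tissue label was not checked against its markers. In bulk tissue, more cells of a type and more RNA per cell cannot be told apart.

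Spp1 and Timp1 were higher in HFpEF, and no member was called lower. These 2 of the 7 genes passed an adjusted p of 0.05 in edgeR's quasi-likelihood test, where 1.94% of all 16313 tested genes passed in either direction, 1.54% higher and 0.398% lower. At an unadjusted p under 0.05 there were 4 of the 7 genes (Postn, Spp1, Sparc and Timp1), against 19.6% of all tested genes. The HFpEF libraries lay above all Control libraries for 4 of the 7 genes and below them for 0, while this was so for 6.74% and 5.73% of all tested genes. The median log2 fold change was 0.31 over the 7 genes, which is the value of Sparc, and -0.00409 over all tested genes. Since the 7 genes were chosen with earlier results of these data known, these shares do not test them against the other genes.

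**Figure D1:**
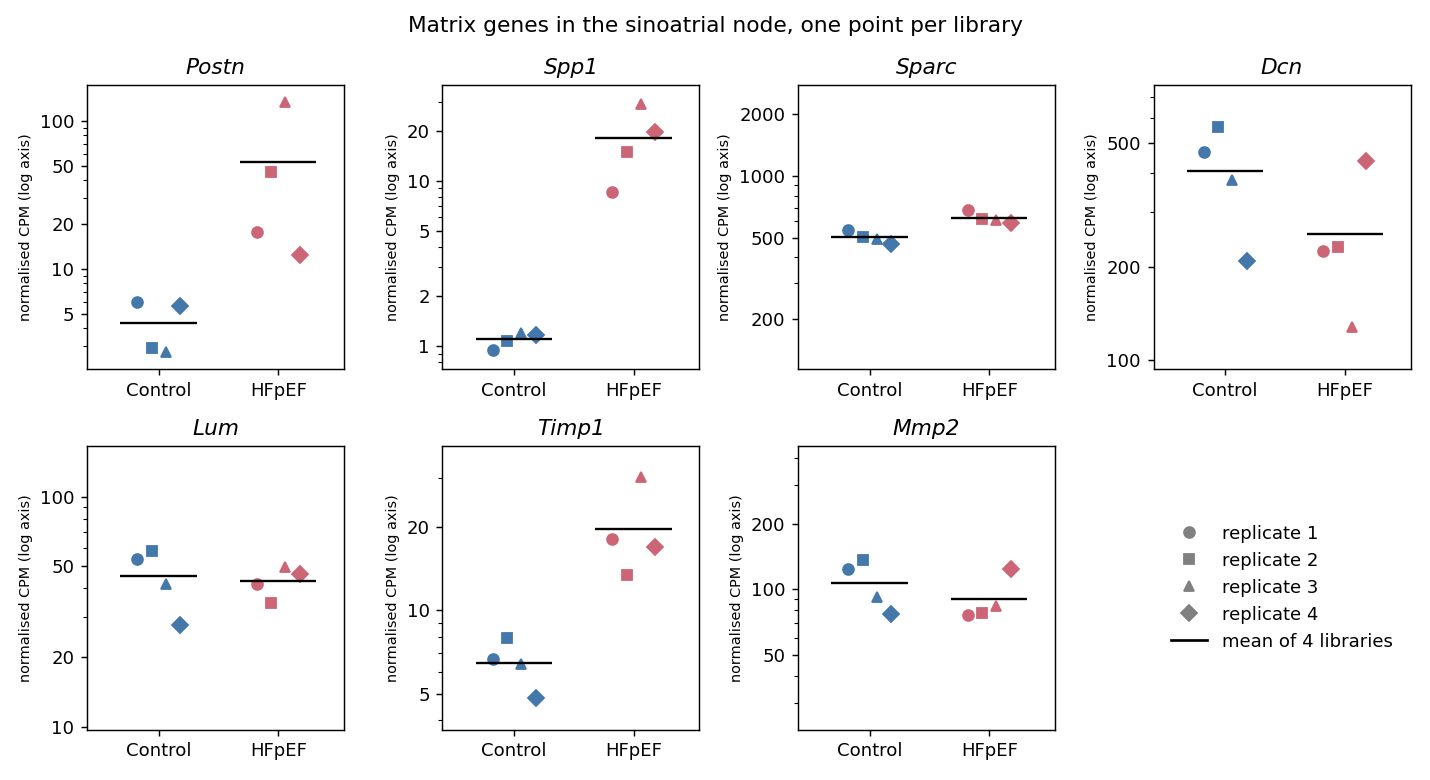
Normalised CPM (log axis) of each gene by group, 1 point per library with the replicate number as its shape and a line at the mean of 4 libraries. The HFpEF points of Postn, Spp1, Sparc and Timp1 sit above all Control points, by a narrow margin for Sparc, while those of Dcn, Lum and Mmp2 overlap with Control.

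Among the matricellular genes, Spp1 encodes osteopontin, a ligand of integrins and CD44 that is made by activated macrophages and fibroblasts. Its level in Control replicates 1 to 4 was 0.947, 1.07, 1.21 and 1.17 CPM, from counts of 35, 40, 46 and 42. In HFpEF replicates 1 to 4 it was 8.50, 15.02, 29.2 and 19.6 CPM. The Control libraries were nearly level, and the lowest HFpEF library stood 7.05-fold above the highest Control library. From 1.10 ± 0.115 to 18.1 ± 8.69 CPM (SD, n = 4 each), Spp1 rose 16.4-fold, or by 4.03 ± 0.37 (standard error) on the log2 scale (95% interval 3.20 to 4.87; edgeR adjusted p = 0.00398). It had the 7th smallest p and the 7th highest log2 fold change of the 16313 tested genes. Spp1 passed the test in every alternative run, with adjusted p-values up to 0.0349 when 1 library was left out.

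Postn encodes periostin, a protein secreted by activated fibroblasts that promotes collagen cross-linking. In Control replicates 1 to 4 its level was 5.96, 2.93, 2.75 and 5.60 CPM. In HFpEF replicates 1 to 4 it was 17.7, 44.9, 134.7 and 12.5 CPM. The groups did not overlap, and the lowest HFpEF library was 2.101-fold above the highest Control library, but the HFpEF libraries themselves spanned 10.8-fold, with replicate 3 far above the others. Control averaged 4.31 ± 1.70 CPM and HFpEF 52.5 ± 56.6 CPM (SD, n = 4 each). The log2 fold change was 3.61 with a standard error of 0.76 (95% interval 1.88 to 5.34), the 13th highest of all tested genes, and it did not pass the threshold (edgeR adjusted p = 0.0525). Without HFpEF replicate 3 the log2 fold change was 2.54 (edgeR adjusted p = 0.0570). It also did not pass in limma-voom (log2 fold change 3.06, adjusted p = 0.152) or with the replicate block in edgeR (3.001, adjusted p = 0.181), nor in 12 of the 16 alternatives in all. Postn did pass without HFpEF replicate 1 (edgeR adjusted p = 0.0430), without HFpEF replicate 4 (0.0396), with no filter on low counts (0.0428) and in DESeq2 (adjusted p = 0.000286), which called 4 of the 7 genes and 7.66% of all genes.

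Sparc encodes SPARC, a collagen-binding protein that takes part in the processing of newly made collagen. It was at 548, 506, 492 and 465 CPM in Control replicates 1 to 4, and at 684, 616, 610 and 589 CPM in HFpEF replicates 1 to 4. Every HFpEF library was above every Control library, though the nearest pair differed by only 1.07-fold. The means were 502 ± 34.6 CPM and 625 ± 41.5 CPM (SD, n = 4 each). The log2 fold change of 0.31 had a standard error of 0.07 (95% interval 0.15 to 0.48) and did not pass the threshold (edgeR adjusted p = 0.0637; DESeq2 adjusted p = 0.00114). Sparc thus differed little in size and also varied little within either group, in contrast to Postn, whose difference was large and uneven between libraries.

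The proteoglycan Dcn encodes decorin, which also binds TGF-beta. Its level in Control replicates 1 to 4 was 469, 563, 379 and 209 CPM, and in HFpEF replicates 1 to 4 it was 224, 231, 128 and 437 CPM. The groups overlapped: Control replicate 4 lay among the HFpEF libraries, and HFpEF replicate 4 lay among the Control libraries. The means were 405 ± 150.5 CPM and 255 ± 130.2 CPM (SD, n = 4 each), with a log2 fold change of -0.67 and a standard error of 0.39 (95% interval -1.54 to 0.21; edgeR adjusted p = 0.384). The interval holds both a fall to 0.344 of the Control level and a 1.15-fold higher level. With 1 library left out the log2 fold change ran from -1.06, without HFpEF replicate 4, to -0.44, without HFpEF replicate 3, and Dcn was not called in any alternative run.

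Lum encodes lumican, which regulates the assembly of collagen fibrils. It stood at 53.6, 58.3, 41.7 and 27.8 CPM in Control replicates 1 to 4 and at 41.8, 34.4, 49.4 and 46.1 CPM in HFpEF replicates 1 to 4. All 4 HFpEF values fell within the range of the Control libraries. The means were 45.3 ± 13.6 CPM and 42.9 ± 6.48 CPM (SD, n = 4 each). The log2 fold change was -0.08 with a standard error of 0.21 (95% interval -0.56 to 0.41; edgeR adjusted p = 0.876), and its sign turned when Control replicate 1, Control replicate 2 or HFpEF replicate 2 was left out.

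Of the genes of matrix turnover, Timp1 encodes a secreted inhibitor that binds active metalloproteinases. Its level was 6.69, 7.92, 6.39 and 4.82 CPM in Control replicates 1 to 4 and 18.1, 13.3, 30.1 and 16.8 CPM in HFpEF replicates 1 to 4. The groups were apart, with the lowest HFpEF library 1.68-fold above the highest Control library, and HFpEF replicate 3 was again the highest. From 6.45 ± 1.28 to 19.6 ± 7.31 CPM (SD, n = 4 each), Timp1 rose 3.03-fold, or by 1.602 ± 0.25 (standard error) on the log2 scale (95% interval 1.03 to 2.17; edgeR adjusted p = 0.0243). It had the 91st smallest p and the 205th highest log2 fold change. This call was lost without Control replicate 1 (edgeR adjusted p = 0.0967), Control replicate 2 (0.0525), Control replicate 3 (0.0825) or Control replicate 4 (0.0526), where the log2 fold change stayed between 1.48 and 1.71.

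Mmp2 encodes gelatinase A, a protease that is secreted as an inactive precursor. It was at 123.5, 136.0, 92.6 and 77.4 CPM in Control replicates 1 to 4, and at 76.2, 77.9, 84.3 and 124.6 CPM in HFpEF replicates 1 to 4. Of the HFpEF libraries, 3 lay close together at or near the lowest Control level, and replicate 4 lay within the upper Control range. The means were 107 ± 27.0 CPM and 90.7 ± 22.9 CPM (SD, n = 4 each). The log2 fold change was -0.24 with a standard error of 0.21 (95% interval -0.72 to 0.23; edgeR adjusted p = 0.563), and Mmp2 was not called in any alternative run.

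**Figure D2:**
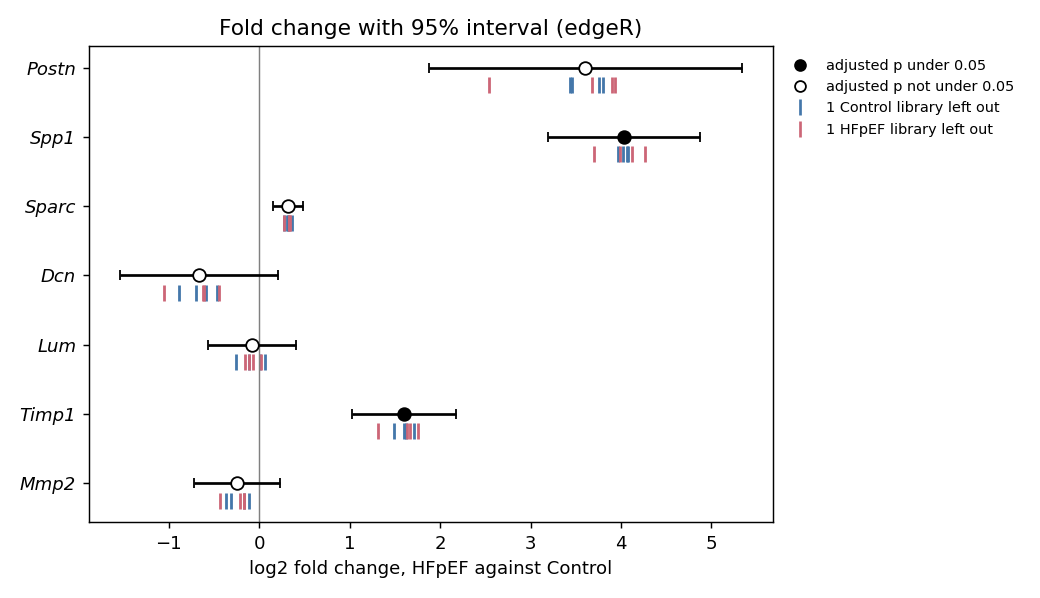
Log2 fold change of HFpEF against Control for each gene with its 95% interval (edgeR, filled where the adjusted p was under 0.05), and below it the estimates with 1 library left out, coloured by that library's group. Spp1 at 4.03 and Timp1 at 1.602 are filled, Postn has the widest interval (1.88 to 5.34), and the intervals of Dcn, Lum and Mmp2 include 0.

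The 7 genes were then compared with each other through the ratio of their counts within each library, which needs no scaling between libraries. A ratio of counts also depends on gene length, so only its difference between groups is read. All 21 pairs were tested by an exact two-sided permutation test over 70 arrangements of the group labels, whose smallest possible p is 0.0286. For 13 pairs the groups did not overlap and this smallest p was reached, which gave an adjusted p of 0.0462 over the 21 pairs. With 12 such pairs it would have been 0.05, so these calls stand or fall together, and pairs that share a gene are not independent. Without Control replicate 1, 2, 3 or 4 or without HFpEF replicate 3, 0 of 21 pairs passed. Groups that do not overlap still do not overlap when a library is left out, so the 13 separations remained. The calls were lost through the smaller permutation test and its adjustment. Their loss does not show that a separation rests on 1 library. How often pairs of any 2 tested genes separate in this way was not computed, so no background share stands beside the 13. Each difference in log2 ratio largely follows from the fold changes of its 2 genes given above, so the count of 13 adds little to them.

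The 13 pairs separated the 7 genes by size of change. All 12 pairs that join Postn, Spp1 or Timp1 with Sparc, Dcn, Lum or Mmp2 were among them, and each shifted towards the first 3 genes in HFpEF. These 2 sets of genes were formed after their values were seen. The further pair was Spp1 to Timp1. Its log2 ratio went from -2.54 ± 0.39 (Control) to -0.19 ± 0.61 (HFpEF; SD, n = 4 each), so Spp1 exceeded its Control proportion to Timp1 by 2.35 on the log2 scale (exact permutation p = 0.0286, adjusted p = 0.0462). Postn to Spp1 did not pass (difference -0.84, exact permutation p = 0.286, adjusted p = 0.286, n = 4 each), and neither did Postn to Timp1 (1.51, exact permutation p = 0.143, adjusted p = 0.176, n = 4 each).

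The inhibitor Timp1 was measured against the protease Mmp2 in the same libraries. Per count of Mmp2 there were 0.0542, 0.0583, 0.0690 and 0.0622 counts of Timp1 in Control replicates 1 to 4. In HFpEF replicates 1 to 4 there were 0.238, 0.171, 0.358 and 0.135. The Control ratios were closely grouped, and every HFpEF ratio was above them. The log2 ratio went from -4.04 ± 0.15 to -2.25 ± 0.61 (SD, n = 4 each), a difference of 1.80 (exact permutation p = 0.0286, adjusted p = 0.0462). The adjusted p was 0.075 without any 1 of the Control replicates and 0.0545 without HFpEF replicate 3, with differences of 1.54 to 1.86. The unadjusted exact permutation p stayed at 0.0286 in each of these runs. Transcript ratios do not measure the activity of either protein.

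Postn and Dcn gave the pair that varied most between HFpEF libraries. Control replicates 1 to 4 held 78.7, 192.1, 137.7 and 37.4 counts of Dcn for each count of Postn. In HFpEF replicates 1 to 4 there were 12.6, 5.15, 0.951 and 34.9. HFpEF replicate 3 had about as many counts of Postn as of Dcn, while HFpEF replicate 4 lay next to Control replicate 4. The difference in log2 ratio was 3.78 (exact permutation p = 0.0286, adjusted p = 0.0462, n = 4 each).

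None of the 6 pairs among Sparc, Dcn, Lum and Mmp2 passed, with adjusted p-values of 0.0857 to 0.24 (exact permutation tests, n = 4 each). In Control, Dcn, Lum, Mmp2 and Timp1 had the same order of libraries: Control replicate 2 was highest in all 4 genes, followed by replicates 1, 3 and 4. These 4 genes were picked after the values were seen, and Postn, Spp1 and Sparc had other orders. The 4 genes did not share an order in HFpEF. How many of all tested genes had this Control order was not computed. The SD of log2 CPM in Control was 0.62 for Dcn, 0.48 for Lum, 0.37 for Mmp2 and 0.30 for Timp1. The log2 ratio of Dcn to Lum had an SD of 0.15, that of Lum to Mmp2 one of 0.15 and that of Timp1 to Mmp2 one of 0.15. The SD was wider for Lum to Timp1 (0.21), Dcn to Mmp2 (0.29) and Dcn to Timp1 (0.33). In HFpEF the log2 ratio of Dcn to Timp1 had the largest SD of these pairs, 1.12, and that of Dcn to Lum had 0.79. That of Timp1 to Mmp2 had 0.61, that of Dcn to Mmp2 0.53, that of Lum to Timp1 0.33 and that of Lum to Mmp2 0.30. The SD of the log2 ratio of Sparc to Lum went the other way, from 0.40 in Control to 0.26 in HFpEF. Dcn to Lum is described further as a choice made after the values were seen. HFpEF replicates 1 to 4 had 5.35, 6.72, 2.59 and 9.48 counts of Dcn per count of Lum, against 7.54 to 9.65 in Control. HFpEF replicates 1 to 3 thus lay below every Control library, and replicate 4 lay within the Control range. The difference in log2 ratio was -0.68 (exact permutation p = 0.114, adjusted p = 0.15). The spread of this ratio was not tested between groups, and with 4 libraries it is a description.

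**Figure D3:**
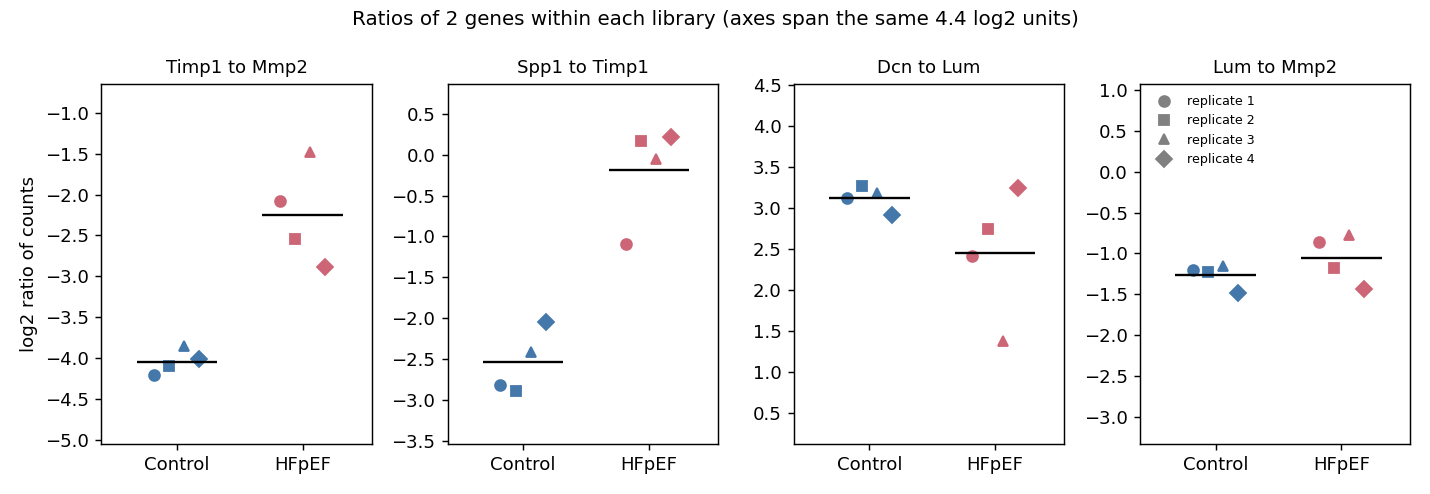
Log2 ratio of the counts of 2 genes within each library, by group, 1 point per library and a line at the mean of 4. Timp1 to Mmp2 and Spp1 to Timp1 do not overlap between groups, while Dcn to Lum and Lum to Mmp2 do. The 4 Control points of Dcn to Lum lie close together (SD 0.15) while the HFpEF points spread (SD 0.79). HFpEF replicates 1 to 3 lie below all of these Control points.

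The HFpEF libraries differed among themselves in how far each gene departed from the Control mean. HFpEF replicate 3 was the highest HFpEF library for Postn, Spp1, Timp1 and Lum and the lowest for Dcn. There Postn stood 31.3-fold and Spp1 26.5-fold above the Control mean, and Dcn at 0.316 of it. HFpEF replicate 4 had the lowest Postn of its group, 2.91-fold above the Control mean, and yet an Spp1 level 17.8-fold above it, and its Dcn, Lum and Mmp2 were at 1.08, 1.02 and 1.16 times the Control mean. HFpEF replicate 1 had the lowest Spp1 of its group, 7.73-fold above the Control mean, and the highest Sparc, 1.36-fold above it. Spp1 and Postn thus did not rank the HFpEF libraries in the same order.

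Within HFpEF the SD of log2 CPM was 1.53 for Postn, larger than for 99.0% of tested genes, 0.75 for Spp1 (94.2%) and 0.72 for Dcn (93.8%). It was 0.09 for Sparc, larger than for 20.5% of tested genes, beside a median of 0.18 over all tested genes. In Control the SD was 0.59 for Postn, larger than for 94.2% of tested genes, and 0.62 for Dcn (94.9%). It was 0.15 for Spp1 (57.1%) and 0.10 for Sparc (38.2%), with a median of 0.13 over all tested genes. The high rank of Postn and Dcn was thus present in both groups. These percentages are descriptions over genes of every level.

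**Figure D4:**
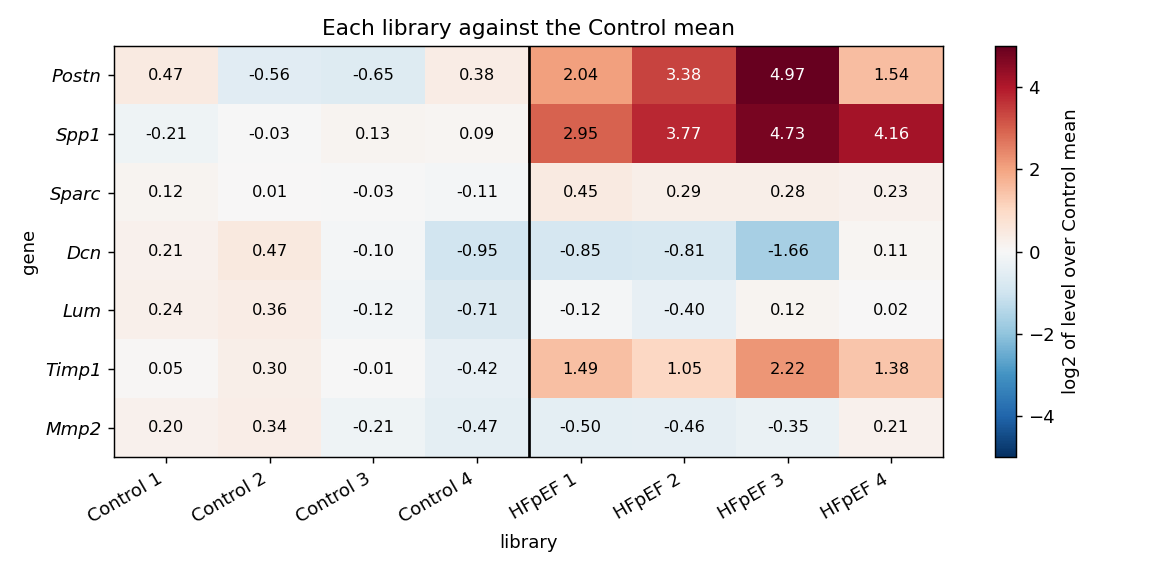
Log2 of each library's normalised CPM over the mean of the 4 Control libraries, with genes in rows, libraries in columns and red for higher levels. Postn, Spp1 and Timp1 are red in all 4 HFpEF columns, Dcn ranges from -1.66 in HFpEF replicate 3 to 0.11 in HFpEF replicate 4, and Control replicate 4 is at -0.95 for Dcn and -0.71 for Lum.

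Likeness across all 8 libraries was measured as the SD of the difference in log2 CPM from a given gene, over 11666 other genes, which were those with a mean of at least 4 CPM and the members. For Postn, Spp1 was the 5th most alike (SD 1.02) and Timp1 the 25th (SD 1.28), while Dcn was 11591st (SD 2.57). For Dcn, Mmp2 was the 145th most alike (SD 0.47) and Lum the 1091st (SD 0.64). For Lum, Mmp2 was the 136th (SD 0.25), and for Mmp2, Lum was the 281st. The ranks depended on the gene they were taken from: Postn was the 5th for Spp1 but the 11431st for Timp1, and Dcn was the 9649th for Mmp2 and the 11134th for Lum. For Timp1, the most alike of the members was Sparc, the 515th (SD 0.76), while Spp1 was the 11491st (SD 1.34). The gene most like Mmp2 was ENSRNOG00000040287, with an SD of 0.05, and the one most like Timp1 was ENSRNOG00000021084, with an SD of 0.23. Neither could be named from the tables used here. This measure includes the difference between the groups, so it is not independent of the fold changes above.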

How the data were processed

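The deposited table gives expected counts per gene that the authors made with RSEM, with no normalization; RSEM 1.2.15, Bowtie2 2.1.0 and rn6 are named in the submitters' processing notes. Per the labels' protocols, ribosomal RNA was depleted from total RNA before library construction. Which annotation release, read filters and strand setting were used is not stated in the sources at hand. None of the 32285 identifiers was paired with a symbol in the reference tables (0 matches); the 7 members were matched by identifier, and 18 symbol lists of related genes and cell type markers were not run.

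Counts were rounded, filtered with filterByExpr and scaled by TMM, and HFpEF was compared with Control over all 16313 genes in R 4.3.3 with edgeR 4.0.16 (quasi-likelihood, two-sided, Benjamini-Hochberg adjustment). Standard errors were derived from the F statistic. The scripts were checked on simulated counts. The alternatives tried were limma 3.58.1 (voom), DESeq2 1.42.0, RLE and upper quartile scaling, no and stricter filtering (1 CPM in 4 libraries), robust = TRUE, a replicate block and each library left out. Libraries of a group differed beyond sampling noise (chi-square over its degrees of freedom, 18.3 to 82.4), so all 8 were kept. The named genes were the 7 members, plus at most 2 unnamed identifiers by likeness. The members and lists were chosen with earlier results of these data known.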

Additional observations from a re-analysis of the deposited data

Results flagged for a closer look

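Mmp2 in HFpEF replicate 4, at 124.6 CPM, stood apart from the other 3 libraries of its group by Dixon's test (gap over range of 0.833). It was the only 1 of 56 sets of 4 values, over the 7 genes and their 21 ratios in each group, in which a value stood apart, where chance gives about 1 in 20. Without this library the log2 fold change of Mmp2 was -0.43 (edgeR adjusted p = 0.224). The same library had the highest Dcn level of its group, 437 CPM. With 4 values the test finds only extreme cases, and Postn in HFpEF replicate 3, at 134.7 CPM, did not reach its critical value.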

How the results depend on the processing

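Spp1 kept its direction and its call in all 16 alternatives, and Dcn and Mmp2 kept their direction and stayed uncalled in all 16. Postn was called in DESeq2 (log2 fold change 3.61) and with no filter (3.60); without 1 library it ran from 2.54 to 3.93. Sparc was called in DESeq2 (0.32) and in no other alternative. Timp1 lost its call with the replicate block (1.56, edgeR adjusted p = 0.0966) and without each Control library in turn, with 1.32 to 1.75 over all libraries left out. Lum turned to 0.01 without Control replicate 1, 0.065 without Control replicate 2 and 0.02 without HFpEF replicate 2, and ran from -0.25 to 0.065. The cause of these changes was not tested, and leaving out a library also leaves fewer samples. Of the 7 genes, DESeq2 called 4, where it called 7.66% of all genes; the block called 1 and left-out libraries 1 to 3. Over all genes, 251 were called higher and 65 lower. DESeq2 gave 856 and 392, limma-voom 186 and 37, and the block 6 and 0, with 2568 at an unadjusted p under 0.05. Without 1 library there were 21 to 234 higher and 0 to 98 lower. The 13 pairs that passed became 0 to 14, and the Timp1 to Mmp2 difference ran from 1.54 to 2.01, without 1 library. The separation of the groups in the 13 pairs cannot be lost in this way, only the call. Flipping the signs of same-numbered differences as a replicate block gave 1.80 with an exact permutation p of 0.125, the smallest that 4 pairs allow. For the 4 replicate numbers the deviations from the group means had correlations of -0.00595, -0.0623, 0.0723 and -0.140 between groups. A library matched its own number best in 2 of 8 cases. The libraries were therefore treated as unpaired. Depth limits Spp1 most, with 35 to 46 counts in Control.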
